A study of Mus musculus with 10 samples.

Results

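Keratins, the filament proteins of epithelial cells, were followed through 10 mouse tumors by 10 genes listed by name: the epidermal keratins *Krt5*, *Krt14*, *Krt15*, *Krt1* and *Krt10*, the stress keratins *Krt6a*, *Krt6b* and *Krt17*, and the simple keratins *Krt8* and *Krt18*. They are 10 of the 45706 genes in the count table and 10 of its 54 genes named Krt with a number. All tumors grew from BrafV600E melanoma cells (strain C57BL/6, from mice carrying Braf+/LSL-V600E, Tyr::CreERT2+/o and p16INK4a-/-), injected under the skin of the flank of C57BL/6 mice that were 8 weeks old, and were taken on day 4. The groups were 4 tumors of the parental, COX-competent cells in untreated hosts (*Ptgs*+/+), 3 tumors of cells lacking *Ptgs1* and *Ptgs2*, the genes for the cyclooxygenases COX-1 and COX-2, in untreated hosts (*Ptgs*-/-), and 3 tumors of those COX-deficient cells in hosts depleted of NK cells. Depletion used 200 µg of anti-NK1.1 (clone PK136) with 30 µg of anti-asialo GM1 per mouse, on the day of injection and on day 2 per the labels. The COX-deficient cells were made by CRISPR/Cas9 from the parental line, so loss of *Ptgs1* and *Ptgs2* and any other difference between the lines cannot be told apart.

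Keratins work in pairs: a type II keratin (*Krt1*, *Krt5*, *Krt6a*, *Krt6b*, *Krt8*) and a type I keratin (*Krt10*, *Krt14*, *Krt15*, *Krt17*, *Krt18*) assemble into one filament, which gives epithelial cells their mechanical strength through desmosomes and hemidesmosomes. *Krt5* and *Krt14* mark the basal layer of the skin and other stratified epithelia, with *Krt15* in basal and hair follicle stem cells; *Krt1* and *Krt10* replace them as keratinocytes differentiate. *Krt6a*, *Krt6b* and *Krt17* are made in the hair follicle and by keratinocytes after wounding, and *Krt8* and *Krt18* are the pair of single-layered epithelia such as gland ducts. Melanocytes are not epithelial cells, and a subcutaneous tumor can also hold skin, fat, muscle and gland of the host.

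The label checks set the frame. *Ptgs2* fell 6.15-fold in *Ptgs*-/- against *Ptgs*+/+ tumors (edgeR quasi-likelihood test, Benjamini-Hochberg adjusted p = 0.00229) and *Ptgs1* fell 1.69-fold (edgeR quasi-likelihood test, Benjamini-Hochberg adjusted p = 0.00202), as bulk tissue that also holds host cells. *Ncr1*, the gene for the NK receptor NKp46, had 0 counts in all 3 NK-depleted tumors and 20 to 77 counts in the undepleted *Ptgs*-/- tumors. Libraries held 8150556 to 12839174 counts, so that 3 counts, the floor used here for a single library, corresponded to 0.234 to 0.368 CPM, counts scaled to a common library total. Of 8 melanocyte genes in tissue labelled melanoma, *Mlana*, *Tyr*, *Tyrp1* and *Gpr143* had at most 2 counts in any library and *Pmel* and *Dct* at most 8, while *Mitf* had 166 to 339 and *Sox10* 2 to 63; the list summed to 20.7 to 36.4 CPM. Of 19 genes of cornified epidermis, *Lor* had at most 2 counts and 7, among them *Flg*, *Flg2*, *Dsg1a* and *Casp14*, had 0 counts in every library, while *Sbsn* stood at 36.3 to 85.8 CPM, *Cdsn* at 9.74 to 35.8 CPM and *Dmkn* at 3.69 to 13.01 CPM. *Krt1* had 1 count over the 10 libraries.

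Of the 10 keratins, 8 passed the filter on low counts. *Krt6b* had 0 counts in 10 libraries, which allows a level of up to 0.0293 CPM over all of them, counting error only. *Krt1* had its 1 count in *Ptgs*+/+ replicate 3. In *Ptgs*+/+ tumors the order of mean levels was *Krt6a* (43.4 CPM), *Krt18* (42.1), *Krt8* (12.4), *Krt10* (11.6), *Krt15* (7.87), *Krt14* (4.42), *Krt5* (3.33) and *Krt17* (2.30). The ranges of all neighbours in that order overlapped over the 4 libraries, although *Krt18* was above *Krt8*, and *Krt15* above *Krt14*, within each library. In *Ptgs*-/- tumors *Krt6a* was the fourth, at 5.74 CPM, behind *Krt18* (25.1), *Krt10* (16.4) and *Krt8* (8.21), and among the neighbours with counts the ranges of *Krt6a* and *Krt15* alone did not overlap. In the NK-depleted group *Krt18* (34.9 CPM) lay above *Krt10* (16.7) and *Krt10* above *Krt8* (9.81) in every library, while *Krt8* and *Krt6a* (9.57) overlapped. The libraries are made from the 3′ end of transcripts, so these CPM values should depend little on transcript length. Use of molecular identifiers and the strand and multimapping settings are not given, so the order between genes is approximate.

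**Figure D1:**
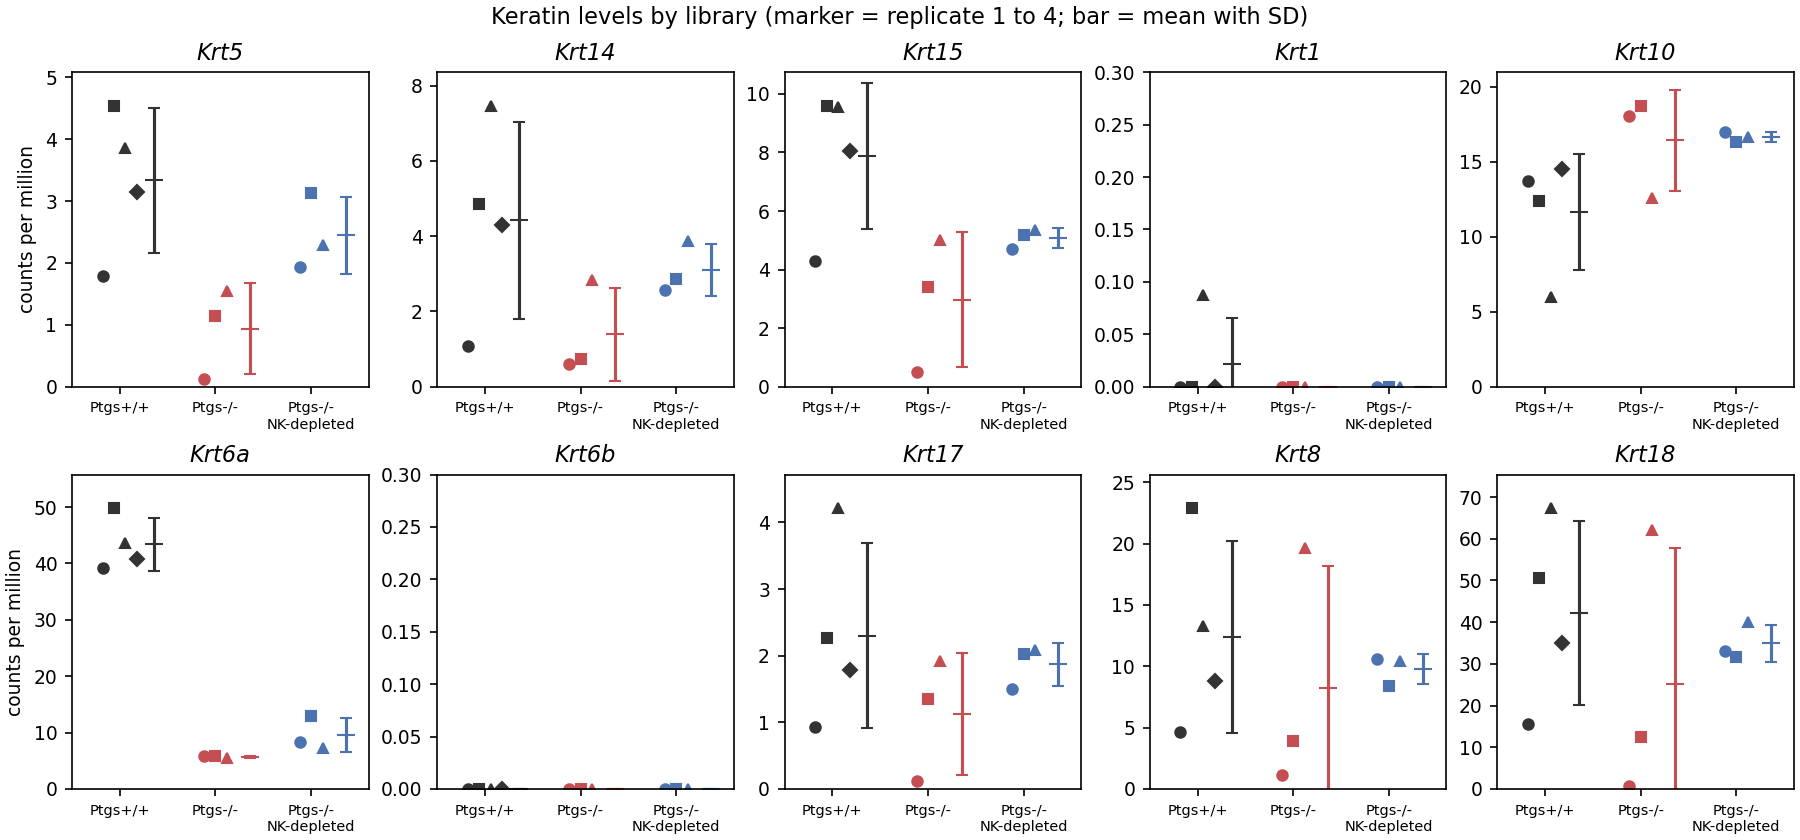
Level of each of the 10 keratins (y axis, CPM; each panel has its own scale) in the 4 *Ptgs*+/+, 3 *Ptgs*-/- and 3 NK-depleted *Ptgs*-/- tumors (x axis); each marker is a library and the bar beside it the mean with SD, cut at 0. *Krt6a* is between 39.3 and 49.8 CPM in *Ptgs*+/+ tumors and at most 13.01 CPM elsewhere, while *Krt18* of the *Ptgs*-/- tumors spans 0.613 to 62.1 CPM.

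In *Ptgs*-/- against *Ptgs*+/+ tumors, 2 of the 8 keratins tested passed both an adjusted p of 0.05 and a log2 fold change of 1.5, *Krt6a* and *Krt5*, and both were lower. *Krt5* passed the filter through the *Ptgs*+/+ and NK-depleted tumors, where it is higher, so its call is given as a description. Over all 14550 genes tested, 1.01% were lower by the same rule, and 23.1% passed the adjusted p alone in either direction. The median log2 fold change of the 8 keratins was -1.22, with 7 negative, beside -0.01 over all genes. The count moved with 1 library at a time: it was 6 without *Ptgs*-/- replicate 3, 4 without *Ptgs*+/+ replicate 1, and 1, *Krt6a*, without *Ptgs*+/+ replicate 2, *Ptgs*-/- replicate 1 or *Ptgs*-/- replicate 2.

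*Krt6a* was the keratin with the largest difference among the 8. Its level was 39.3, 49.8, 43.6 and 40.8 CPM in the *Ptgs*+/+ tumors, 5.77, 5.90 and 5.56 CPM in the *Ptgs*-/- tumors, and 8.35, 13.01 and 7.35 CPM in the NK-depleted tumors. The *Ptgs*+/+ tumors were all high, the *Ptgs*-/- tumors all low and close together, and the NK-depleted tumors lay between them with no overlap on either side. The means were 43.4 ± 4.65 (SD, n = 4), 5.74 ± 0.169 (SD, n = 3) and 9.57 ± 3.02 CPM (SD, n = 3). *Krt6a* was 7.87-fold lower in *Ptgs*-/- than in *Ptgs*+/+ tumors (log2 fold change -2.98, SE 0.21; edgeR quasi-likelihood test, Benjamini-Hochberg adjusted p = 1.47e-05). In NK-depleted *Ptgs*-/- against *Ptgs*+/+ tumors it was 4.61-fold lower (log2 fold change -2.21, SE 0.19; edgeR quasi-likelihood test, Benjamini-Hochberg adjusted p = 6.8e-05). All 19 alternative fits of each comparison kept the fall and its side of the threshold, with log2 fold changes between -3.01 and -2.89 for the first and between -2.50 and -2.03 for the second. Among the 451 to 469 windows of 50 bases in the last 500 bases of the *Krt6a* and *Krt6b* transcripts, 0 were shared with another gene, so reads of this length there would tell the 2 genes apart. *Krt6a* (ENSMUSG00000058354; GRCm38 chr15:101689910-101694307, minus strand) has exons that overlap the antisense gene *Gm49428*, and without a stated strand setting in counting, reads of the pair cannot be told apart there.

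*Krt17*, the type I partner of *Krt6a* in wounded epithelium, stood at much lower levels. It had 12, 22, 48 and 17 counts in *Ptgs*+/+ tumors, 1, 13 and 21 in *Ptgs*-/- tumors, and 14, 22 and 21 in NK-depleted tumors. The groups overlapped, and the log2 fold change between *Ptgs*-/- and *Ptgs*+/+ tumors was -1.02 (SE 0.60; edgeR quasi-likelihood test, Benjamini-Hochberg adjusted p = 0.25). The counts of *Krt17* in *Ptgs*-/- tumors alone would not have passed the filter. Between *Krt14* and *Krt17*, 9.53% of the same 50-base windows were shared between these genes or with *Krt16*, so a part of their reads could have been split or left out in counting. *Krt6a* and *Krt17* did not keep one ratio. The log2 ratio of *Krt6a* to *Krt17* counts was between 3.37 and 5.39 in *Ptgs*+/+ tumors and between 1.82 and 2.68 in NK-depleted tumors, and in *Ptgs*-/- tumors it was 5.55, on 1 count of *Krt17*, 2.13 and 1.54. Because *Krt6a* set the *Ptgs*+/+ tumors apart from the rest, no correlation of this pair over all libraries is given. Summed over the 3 stress keratins, the level was 45.7 ± 5.33 CPM (SD, n = 4) in *Ptgs*+/+, 6.87 ± 0.857 (SD, n = 3) in *Ptgs*-/- and 11.4 ± 3.12 CPM (SD, n = 3) in NK-depleted tumors, nearly all of it *Krt6a*.

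The basal keratins were lower in *Ptgs*-/- tumors, *Krt5* past the threshold and *Krt14* and *Krt15* not. *Krt5* stood at 1.79, 4.54, 3.86 and 3.14 CPM in *Ptgs*+/+ tumors, at 0.123, 1.14 and 1.55 CPM in *Ptgs*-/- tumors, and at 1.93, 3.14 and 2.28 CPM in NK-depleted tumors. Every *Ptgs*-/- tumor was below every tumor of the other groups, although the lowest value rests on 1 count. *Krt5* fell 3.51-fold in *Ptgs*-/- against *Ptgs*+/+ tumors (log2 fold change -1.81, SE 0.51; edgeR quasi-likelihood test, Benjamini-Hochberg adjusted p = 0.026). With 1, 11 and 17 counts in *Ptgs*-/- tumors, *Krt5* passed the filter through the *Ptgs*+/+ and NK-depleted tumors, where it is higher. Its adjusted p values are therefore given as a description. Of 18 alternative fits, 3 left *Krt5* above an adjusted p of 0.05: without *Ptgs*+/+ replicate 2 (edgeR quasi-likelihood test, Benjamini-Hochberg adjusted p = 0.0686), without *Ptgs*-/- replicate 2 (edgeR quasi-likelihood test, Benjamini-Hochberg adjusted p = 0.067) and with only these groups in the model (edgeR quasi-likelihood test, Benjamini-Hochberg adjusted p = 0.0545). A call that also needs the fold was lost in 1 more, without *Ptgs*-/- replicate 1, where the log2 fold change was -1.36 (edgeR quasi-likelihood test, Benjamini-Hochberg adjusted p = 0.0407).

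*Krt15*, a keratin of basal and follicle cells, was the most abundant of the basal members. It stood at 4.28, 9.59, 9.57 and 8.06 CPM in *Ptgs*+/+ tumors, 0.491, 3.41 and 5.02 CPM in *Ptgs*-/- tumors, and 4.71, 5.17 and 5.36 CPM in NK-depleted tumors. *Ptgs*+/+ replicate 1 lay within the range of the *Ptgs*-/- group, and the log2 fold change was -1.42 (SE 0.48; edgeR quasi-likelihood test, Benjamini-Hochberg adjusted p = 0.0528). *Krt14*, the partner of *Krt5*, stood at 1.09, 4.85, 7.46 and 4.29 CPM in *Ptgs*+/+ tumors, 0.613, 0.724 and 2.83 CPM in *Ptgs*-/- tumors, and 2.57, 2.86 and 3.87 CPM in NK-depleted tumors. Again the first *Ptgs*+/+ replicate overlapped the *Ptgs*-/- tumors, and the log2 fold change was -1.67 (SE 0.62; edgeR quasi-likelihood test, Benjamini-Hochberg adjusted p = 0.0725). For *Krt14* and *Krt15* alike, 7 of 18 alternative fits passed the threshold, DESeq2 among them (DESeq2 Wald test, Benjamini-Hochberg adjusted p = 0.0255 and 0.0149). In *Ptgs*-/- tumors *Krt14* had 5, 7 and 31 counts and *Krt15* 4, 33 and 55. Like *Krt5*, both passed the filter through the *Ptgs*+/+ and NK-depleted tumors, and their p-values have the same limit.

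*Krt10*, the type I keratin of differentiating keratinocytes, went the other way and without its partner *Krt1*. It stood at 13.7, 12.4, 5.97 and 14.5 CPM in *Ptgs*+/+ tumors, 18.04, 18.7 and 12.6 CPM in *Ptgs*-/- tumors, and 17.0, 16.3 and 16.7 CPM in NK-depleted tumors. The NK-depleted tumors were close together and all above the *Ptgs*+/+ tumors, whereas *Ptgs*-/- replicate 3 overlapped them. The log2 fold change was 0.44 (SE 0.26) in *Ptgs*-/- against *Ptgs*+/+ tumors (edgeR quasi-likelihood test, Benjamini-Hochberg adjusted p = 0.247) and 0.49 (SE 0.26) in NK-depleted against *Ptgs*+/+ tumors (edgeR quasi-likelihood test, Benjamini-Hochberg adjusted p = 0.254). *Krt10* (ENSMUSG00000019761; GRCm38 chr11:99385254-99389364, minus strand) has exons that overlap the antisense gene *Gm11940*, whose reads could not be told apart from its own without a stated strand setting.

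The simple keratins varied more within the *Ptgs*-/- group than between groups. *Krt8* stood at 4.67, 22.9, 13.3 and 8.79 CPM in *Ptgs*+/+ tumors, 1.10, 3.93 and 19.6 CPM in *Ptgs*-/- tumors, and 10.6, 8.39 and 10.4 CPM in NK-depleted tumors. *Krt18* stood at 15.6, 50.6, 67.3 and 34.9 CPM, at 0.613, 12.5 and 62.1 CPM, and at 33.1, 31.7 and 39.9 CPM in the same order. Both genes were lowest in *Ptgs*-/- replicate 1 and near the top in *Ptgs*-/- replicate 3. Between *Ptgs*-/- and *Ptgs*+/+ tumors the log2 fold changes were -0.63 (SE 0.70; edgeR quasi-likelihood test, Benjamini-Hochberg adjusted p = 0.554) for *Krt8* and -0.80 (SE 0.81; edgeR quasi-likelihood test, Benjamini-Hochberg adjusted p = 0.512) for *Krt18*. *Ptgs*-/- replicate 3 and *Ptgs*+/+ replicate 4 carry another experiment code in their labels than the other 8 libraries. Within the 8 libraries of the first code the log2 fold change was -2.41 for *Krt8* (edgeR quasi-likelihood test, Benjamini-Hochberg adjusted p = 0.0431) and -2.74 for *Krt18* (edgeR quasi-likelihood test, Benjamini-Hochberg adjusted p = 0.0569). With the code as a term over all libraries it was -1.25 for *Krt8* (edgeR quasi-likelihood test, Benjamini-Hochberg adjusted p = 0.285) and -1.65 for *Krt18* (edgeR quasi-likelihood test, Benjamini-Hochberg adjusted p = 0.224). With 1 tumor of either line and no NK-depleted tumor under it, the second code gives no test within itself.

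*Krt8* (GRCm38 chr15:101996698-102004482, minus strand) and *Krt18* (chr15:102028180-102032027, plus strand) are neighbours at the end of the type II keratin cluster, 23697 bases apart, and *Krt18* is a type I gene outside the type I cluster on chromosome 11. The exons of *Krt8* overlap the gene *Gm36026* on the other strand, and 1.11% of the 50-base windows at the end of *Krt18* were shared with the gene *Gm5200*. The 250 bases before the RefSeq start of *Krt8* and of *Krt18* (assembly GRCm38.p6) are shown, with those of *Krt5* for comparison. A part of these sequences in the keratin levels was not tested. The windows were searched on both strands for the TATA box TATAAA, for the E-box CACCTG and for the AP-1 motif TGANTCA, and matches are in capitals.
Krt8 promoter, chr15:102004343-102004592, minus strand: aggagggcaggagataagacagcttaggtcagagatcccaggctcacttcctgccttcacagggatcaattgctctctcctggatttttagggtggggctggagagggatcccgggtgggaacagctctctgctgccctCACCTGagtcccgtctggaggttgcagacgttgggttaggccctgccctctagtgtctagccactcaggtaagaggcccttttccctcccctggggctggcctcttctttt
Krt18 promoter, chr15:102027966-102028215, plus strand: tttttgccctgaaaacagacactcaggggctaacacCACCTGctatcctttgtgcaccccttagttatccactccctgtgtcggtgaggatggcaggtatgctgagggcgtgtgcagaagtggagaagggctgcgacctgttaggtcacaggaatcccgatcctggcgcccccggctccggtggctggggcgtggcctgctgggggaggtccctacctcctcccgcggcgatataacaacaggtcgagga
Krt5 promoter, chr15:101712906-101713155, minus strand: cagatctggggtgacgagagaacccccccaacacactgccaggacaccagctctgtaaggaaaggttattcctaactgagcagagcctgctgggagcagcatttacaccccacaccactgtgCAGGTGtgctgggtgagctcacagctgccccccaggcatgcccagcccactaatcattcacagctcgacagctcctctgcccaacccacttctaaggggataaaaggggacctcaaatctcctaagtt
Each of these 3 windows held CACCTG 1 time, in *Krt5* on the opposite strand, and neither of the other motifs. The motif begins 111 bases before the start in *Krt8*, 214 in *Krt18* and 128 in *Krt5*. CACCTG was found in 17.2% of all 32851 promoter windows of this length, TATAAA in 12.4% and TGANTCA in 6.75%. Sequence was found for 5 of the 10 keratins. Of the 5, *Krt10* held TATAAA 26 bases before its start and a CACCTG 52 bases before it, and *Krt14* held none of the motifs. The *Krt14* window (chr11:100206031-100206280) lies inside the gene as annotated in GENCODE M21 (chr11:100203162-100207548). It is therefore not the sequence before that annotated start. Parts of the *Krt8* and *Krt18* windows also lie inside their genes by that annotation, and in *Krt8* that part holds the CACCTG.

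Partner keratins were then compared over the 10 tumors on the scale of log2(CPM + 1). *Krt8* and *Krt18* had Pearson's r = 0.94 (n = 10; two-sided permutation test with 100000 resamples, p = 0.00024, adjusted 0.00048 over 2 pairs) and Spearman's rho = 0.92 (permutation p = 0.00064, adjusted 0.00064). Without the 2 tumors farthest from the median of *Krt8*, *Ptgs*+/+ replicate 2 and *Ptgs*-/- replicate 1, r was 0.96. *Krt5* and *Krt14* had r = 0.85 (n = 10; permutation p = 0.0007, adjusted 0.0007) and rho = 0.94 (permutation p = 0.00016, adjusted 0.00032), and r was 0.84 without the same 2 tumors. Resampling was over all 10 tumors and not within groups, also for the deviations below. The pooled p-values therefore also carry differences between groups, such as that of *Krt5*. On deviations from the group means, r was 0.93 for *Krt8* and *Krt18* and 0.74 for *Krt5* and *Krt14* (n = 10; permutation tests, adjusted p = 0.00092 and 0.0176). For *Krt5* and *Krt14* that value fell to 0.45 without *Ptgs*+/+ replicate 1 and *Ptgs*-/- replicate 1, so the relation within groups rests on those tumors. *Krt8* and *Krt18* were also in a steady proportion: *Krt18* had 2.21 to 5.08 counts for each count of *Krt8* in 9 of the tumors. In *Ptgs*-/- replicate 1 the proportion was 0.556, on 5 counts of *Krt18* and 9 of *Krt8*. The keratins were not alike by partner alone, since *Krt5* and *Krt15* had r = 0.96 and *Krt15* and *Krt18* r = 0.93, given without a test.

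**Figure D2:**
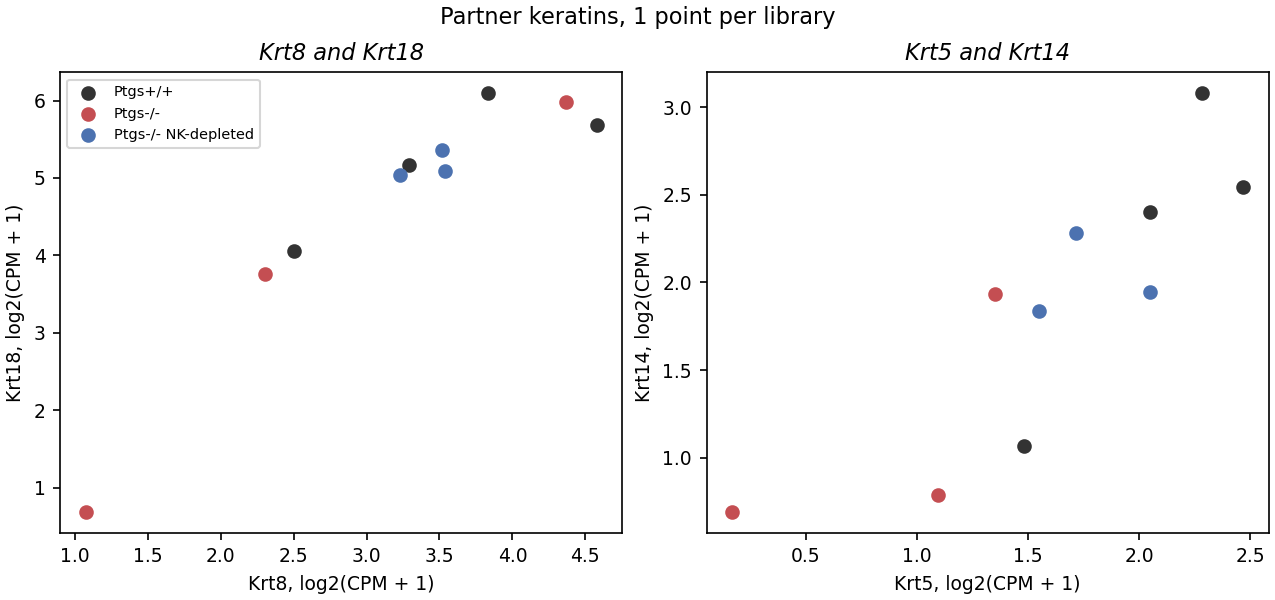
*Krt18* against *Krt8* (left) and *Krt14* against *Krt5* (right), both axes log2(CPM + 1), with 1 point for each of the 10 libraries coloured by group. The points rise together in both panels (r = 0.94 and 0.85), and the *Ptgs*-/- points cover the widest range of *Krt8* and *Krt18*.

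In NK-depleted against undepleted *Ptgs*-/- tumors all 8 keratins tested had positive log2 fold changes, none past the threshold. The count of keratins called was 0 of 8 with edgeR and 0 with DESeq2, and 1.15% of all genes tested were called with edgeR. By adjusted p alone the count of keratins was also 0, beside 1.44% of all genes. An unadjusted p under 0.05 with edgeR was found for 2 of the 8, and for 1630 of the 14550 genes tested. *Krt6a* was 1.71-fold higher (log2 fold change 0.77, SE 0.22; edgeR quasi-likelihood test, Benjamini-Hochberg adjusted p = 0.156) and *Krt5* 2.55-fold higher (log2 fold change 1.35, SE 0.55; edgeR quasi-likelihood test, Benjamini-Hochberg adjusted p = 0.381), each with no overlap between the groups. The share of all genes without such overlap is not given here, so the lack of overlap adds no support. The other log2 fold changes were 1.13 (SE 0.66) for *Krt14*, 0.76 (SE 0.51) for *Krt15*, 0.70 (SE 0.65) for *Krt17*, 0.50 (SE 0.85) for *Krt18*, 0.26 (SE 0.74) for *Krt8* and 0.05 (SE 0.27) for *Krt10*. Those of *Krt8* and *Krt18* became -0.23 and -0.057 without *Ptgs*-/- replicate 1, that of *Krt8* also -0.075 without *Ptgs*-/- replicate 2, and that of *Krt10* -0.15 without *Ptgs*-/- replicate 3. Skeletal muscle genes moved with the depleted group: 7 of 8 rose, and their summed level was 130.3 to 452.6 CPM in *Ptgs*-/- and 2555 to 6229 CPM in NK-depleted tumors. Their part in the keratin values was not tested.

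In NK-depleted *Ptgs*-/- against *Ptgs*+/+ tumors, *Krt6a* alone of the 8 was called, where 0.701% of all genes were called lower and 12.5% passed the adjusted p alone. *Krt5*, lower in undepleted tumors, had a log2 fold change of -0.46 here (SE 0.46; edgeR quasi-likelihood test, Benjamini-Hochberg adjusted p = 0.576). The values of *Krt15*, *Krt14*, *Krt8*, *Krt17* and *Krt18* were between -0.66 and -0.31. These comparisons share tumors with those above and are not independent of them.

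**Figure D3:**
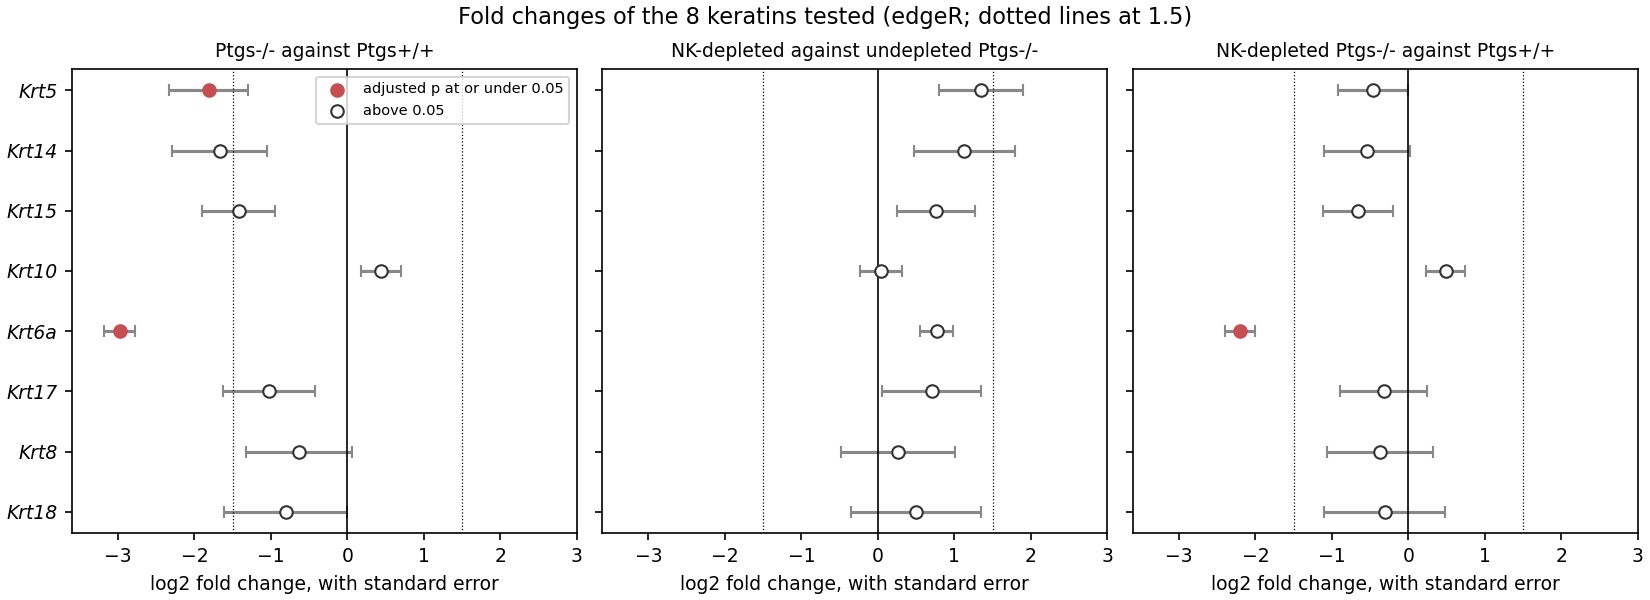
Log2 fold change (x axis) with its standard error for the 8 keratins tested (rows) in 3 comparisons (panels); filled points passed an adjusted p of 0.05 and dotted lines mark a log2 fold change of 1.5 in either direction. *Krt6a* is filled in both comparisons with *Ptgs*+/+ tumors, *Krt5* in the first alone, and no point is filled in the middle panel.

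Of the 8 keratins tested, 6 had their lowest level in the same tumor, *Ptgs*-/- replicate 1: *Krt5*, *Krt14*, *Krt15*, *Krt17*, *Krt8* and *Krt18*. *Krt6a* did not, and *Krt10* had its lowest level in *Ptgs*+/+ replicate 3. The genes of simple epithelium moved with these 6. Of 15 tested in that list of 16, which includes *Krt7*, *Krt19*, *Epcam* and *Cdh1*, 13 were also lowest in *Ptgs*-/- replicate 1. The share of all genes lowest in that tumor is not given here. *Krt19* stood at 7.09, 64.4, 42.9 and 17.5 CPM in *Ptgs*+/+ tumors, at 2.45, 8.90 and 32.2 CPM in *Ptgs*-/- tumors, and at 18.9, 23.0 and 17.98 CPM in NK-depleted tumors. The order of the *Ptgs*-/- tumors was that of *Krt8* and *Krt18*. In *Ptgs*-/- against *Ptgs*+/+ tumors the median over the list was -1.41 on the log2 scale. Past an adjusted p of 0.05, 0 genes fell and 1 rose, *Krt20*, which is also among the other keratins below. Over all genes 23.1% passed in either direction.

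Over the 3 *Ptgs*-/- tumors the sums of gland and fat genes had the order of *Krt8* and *Krt18*. In *Ptgs*+/+ tumors the fat sum did not have it. That sum was 1162 CPM in replicate 2, where *Krt8* was highest, and 4081 CPM in replicate 4. A list of 11 mammary gland genes, chosen after its values were seen and given without a test (*Prlr* and *Cited1*, which made up 42.2% of the sum in *Ptgs*-/- replicate 1 and 68.0% to 81.8% in the other libraries, *Csn3*, *Lalba*, *Wfdc18*, *Elf5*, *Ltf*, *Foxa1* and others, with *Csn2* at 0 in every library and *Wap* at 1 count), summed to 5.52, 25.6 and 129.0 CPM in the *Ptgs*-/- tumors. It summed to 48.9 to 229.6 CPM in *Ptgs*+/+ tumors and 73.5 to 160.9 CPM in NK-depleted tumors. Of its 7 genes tested, 6 were lowest in *Ptgs*-/- replicate 1 and *Csn3* in *Ptgs*-/- replicate 2. The 6 fat genes, led by *Adipoq* and *Cfd*, summed to 256.1, 1518 and 3305 CPM in the *Ptgs*-/- tumors, 924.0 to 4482 CPM in *Ptgs*+/+ tumors and 1610 to 3473 CPM in NK-depleted tumors, and 5 of the 6 were lowest in *Ptgs*-/- replicate 1. Of 6 fibroblast genes, 4 rose in *Ptgs*-/- against *Ptgs*+/+ tumors, where 23.1% of all genes passed in either direction, with summed levels of 13440 to 16624 and 7516 to 10436 CPM, and *Msln*, the 1 tested of 4 mesothelial genes, fell by 0.65 on the log2 scale (edgeR quasi-likelihood test, Benjamini-Hochberg adjusted p = 0.023). In bulk tumors, fewer cells of a type and less RNA per cell cannot be told apart. The part of gland, fat or stromal cells in the keratin values was not tested. Without *Ptgs*-/- replicate 1 the log2 fold change of *Krt6a* between *Ptgs*-/- and *Ptgs*+/+ tumors was -2.99 (edgeR quasi-likelihood test, Benjamini-Hochberg adjusted p = 3.48e-05). Leaving out this library does not test the part of those cells.

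**Figure D4:**
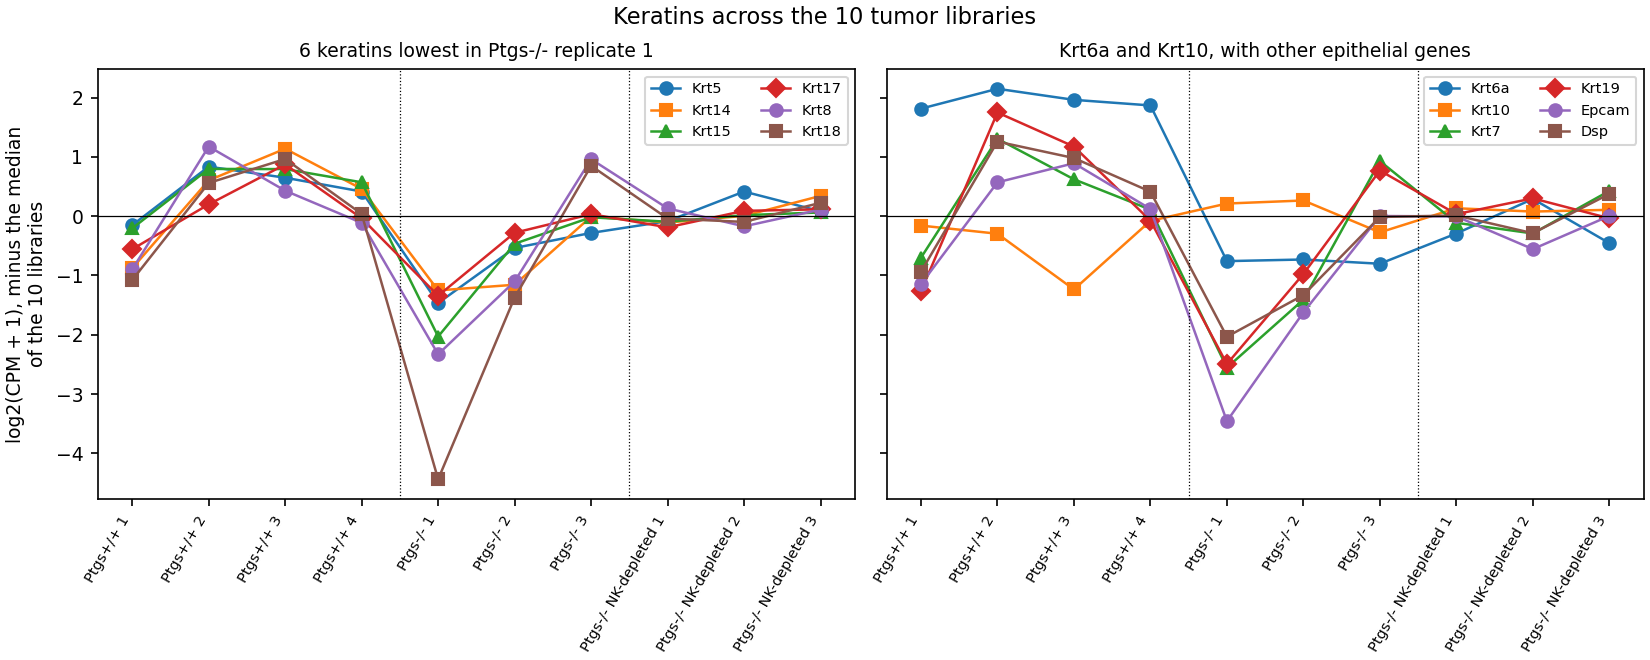
Level of each gene in each of the 10 libraries (x axis), as log2(CPM + 1) minus its median over the libraries (y axis); lines join the values of one gene for the eye only, and dotted lines part the groups. Left, *Krt5*, *Krt14*, *Krt15*, *Krt17*, *Krt8* and *Krt18* are lowest in *Ptgs*-/- replicate 1; right, *Krt7*, *Krt19*, *Epcam* and *Dsp* have the same low point, while *Krt6a* and *Krt10* do not.

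Other keratins, outside the 10, changed in both directions. Of 21 further epithelial keratins in a fixed list, 8 were tested, and 3 rose and 1 fell in *Ptgs*-/- against *Ptgs*+/+ tumors, the same numbers as in NK-depleted against *Ptgs*+/+ tumors. Over all genes 23.1% and 12.5% passed in these comparisons. *Krt12*, the type I keratin of the cornea, had 111 to 231 counts in *Ptgs*+/+ tumors, 2, 6 and 10 in *Ptgs*-/- tumors and 10 in each NK-depleted tumor. The *Ptgs*+/+ tumors lay far above the others. *Krt12* passed the filter through that group, where it is high, and so had to differ. Its log2 fold change of -4.72 (SE 0.39) is given as a description. Its exons overlap the antisense gene *A830036E02Rik*, which had at most 3 counts in any library. *Krt20*, a type I keratin of gut and urothelium, rose from 18.7 ± 4.65 (SD, n = 4) to 57.1 ± 8.82 CPM (SD, n = 3), a log2 fold change of 1.55 (SE 0.19; edgeR quasi-likelihood test, Benjamini-Hochberg adjusted p = 0.000334). *Krt76*, an oral type II keratin, had 1 to 4 counts in *Ptgs*+/+ tumors, about the floor, and 21 to 43 in *Ptgs*-/- tumors. It passed the filter through the groups where it is high and so had to differ, and its counts are given as a description. *Krt36*, a follicle and tongue keratin, had 5 to 15 counts and 17 to 71 counts (log2 fold change 2.27, SE 0.49). It also passed the filter through the groups where it is high, and its values are given as a description. The numbers that rose and fell above include *Krt12*, *Krt76* and *Krt36*. In NK-depleted against undepleted *Ptgs*-/- tumors 0 of the 8 passed.

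**Figure D5:**
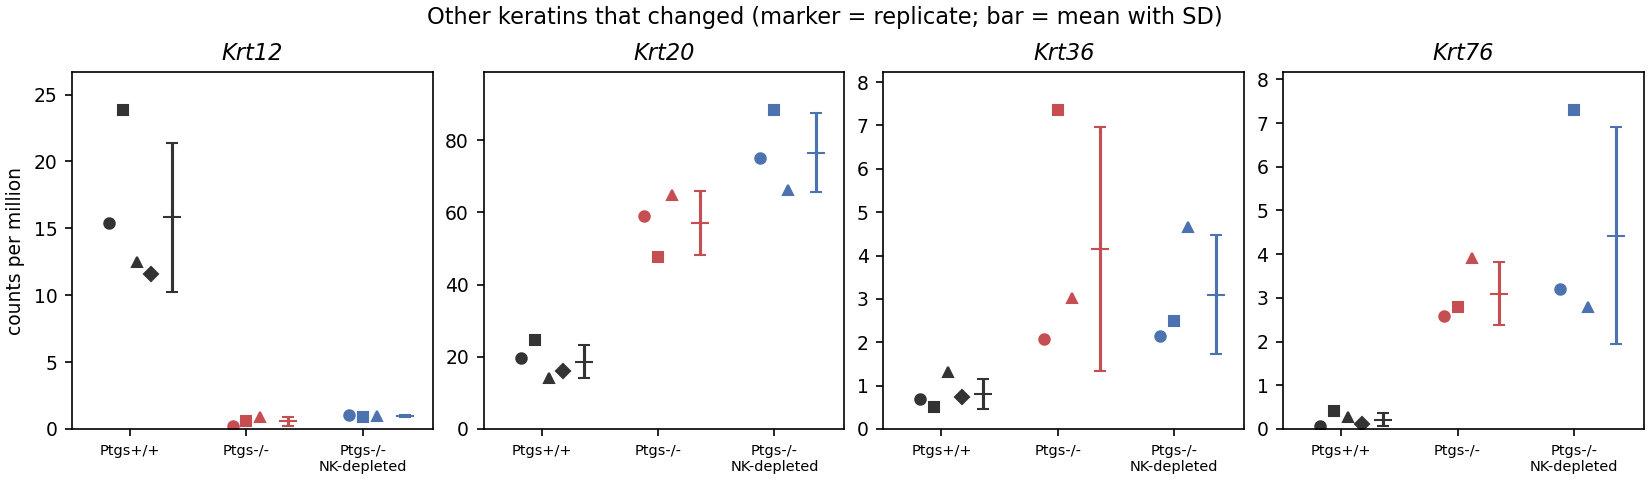
Level of *Krt12*, *Krt20*, *Krt36* and *Krt76* (y axis, CPM; each panel has its own scale) by group (x axis); each marker is a library and the bar beside it the mean with SD. *Krt12* is high in *Ptgs*+/+ tumors alone (15.8 ± 5.57 CPM, SD, n = 4), and the other 3 are higher in both *Ptgs*-/- groups.

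Other genes of skin were counted beside the keratins. Of 9 basal keratinocyte genes, such as *Trp63*, the regulator of stratified epithelium, and the hemidesmosome gene *Itgb4*, 6 were tested and 0 passed in any of the 3 comparisons, where 23.1%, 1.44% and 12.5% of all genes did. Their median on the log2 scale was -0.16 for *Ptgs*-/- less *Ptgs*+/+ tumors. The summed level of the list was 426.6 to 535.2 CPM in *Ptgs*+/+ and 354.9 to 532.6 CPM in *Ptgs*-/- tumors. Most of it was *Itga6*, at 320.0 to 415.0 CPM and 273.3 to 416.9 CPM in these groups. *Trp63* stood at 0.623 to 1.88 CPM and 0.491 to 1.19 CPM, and the desmosome genes *Dsg3* and *Dsc3* had at most 3 counts. Of 19 cornified layer genes, 6 were tested and 1 rose, *Klk7*, a protease of the outer skin with at most 1 count in *Ptgs*+/+ tumors and 8 to 17 in *Ptgs*-/- tumors, which passed the filter through the latter. Of 8 genes of activated keratinocytes, the setting in which *Krt6a* is known, 1 was tested: *Sprr1a*, an envelope protein, rose from 14.0 ± 8.60 (SD, n = 4) to 102.9 ± 17.1 CPM (SD, n = 3), opposite to *Krt6a* (log2 fold change 2.81, SE 0.35; edgeR quasi-likelihood test, Benjamini-Hochberg adjusted p = 0.000387). The other 7, *Krt16* included, had at most 3 counts in any library. Hair keratins were near 0, with 17 of the 19 in the table at or under 3 counts in every library and 0 tested, and 0 of 5 sebaceous gland genes were tested. Of 8 hair follicle genes 4 were tested and *Sox9* rose (log2 fold change 1.21; edgeR quasi-likelihood test, Benjamini-Hochberg adjusted p = 0.000549).

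Genes that anchor keratin filaments moved in both directions. Of 12 desmosome and linker genes 10 were tested, and in *Ptgs*-/- against *Ptgs*+/+ tumors 2 rose and 1 fell, beside the 23.1% of all genes that passed. *Pkp1*, a desmosomal plakophilin, fell from 11.4 ± 2.86 (SD, n = 4) to 2.48 ± 0.895 CPM (SD, n = 3), a log2 fold change of -2.26 (SE 0.33; edgeR quasi-likelihood test, Benjamini-Hochberg adjusted p = 0.000815), with no overlap. *Jup* (plakoglobin) and *Pkp3* rose by 0.46 and 0.60 on the log2 scale (edgeR quasi-likelihood test, Benjamini-Hochberg adjusted p = 0.0261 and 0.0465). *Dsp*, the desmoplakin that ties keratins to desmosomes, had a log2 fold change of -2.01 (SE 0.74; edgeR quasi-likelihood test, Benjamini-Hochberg adjusted p = 0.0725) and, like *Krt8*, was lowest in *Ptgs*-/- replicate 1. Among 10 tested genes of other intermediate filaments, the neurofilament gene *Nefm* rose by 2.79, and the lamin genes *Lmna*, *Lmnb1* and *Lmnb2* fell by 1.21, 0.81 and 0.48 on the log2 scale (edgeR quasi-likelihood test, Benjamini-Hochberg adjusted p = 0.000146, 0.00031, 0.00102 and 0.0151). *Nefl*, another neurofilament gene, had 3 to 5 counts in *Ptgs*+/+ tumors, about the floor, and 9 to 25 in *Ptgs*-/- tumors. It passed the filter through the groups where it is high, and its counts are given as a description. In NK-depleted against undepleted tumors the muscle filament genes *Des* and *Synm* rose by 3.87 and 2.36 on the log2 scale (edgeR quasi-likelihood test, Benjamini-Hochberg adjusted p = 0.000971 and 0.00199), along with the skeletal muscle genes above.

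By likeness of pattern over the 10 libraries, with Pearson's r of log2(CPM + 1) and no test, the genes nearest to each of 4 keratins differed. Those nearest to *Krt8* were *Krt7* (r = 0.98), *Tmem250-ps*, *Gipc2*, *Mlph* and *Tmem56* (0.96), and *Krt7* is another type II keratin of ducts. Those nearest to *Krt14* were *Trim29* (0.97), *Marveld3*, *Uqcr11*, *Dsp* and *Ltf* (0.95). Those nearest to *Krt6a* were *Asph* (0.997), *Uck2*, *Snrpd1*, *Cip2a* and *Clu* (0.99), and those nearest to *Krt10* were *Mbd2* (0.99), *Dse*, *Cmtm3*, *Sec61g* and *Snx24* (0.98). The 4 lists share no gene. The highest r among 14550 genes is high by selection alone.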

How the data were processed

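Bulk tumor RNA was made into 10 QuantSeq 3′ libraries. Per the methods of the study, the authors trimmed the first 12 bases and poly(G) and poly(A) tails, aligned reads to GRCm38 with STAR and assigned them to Ensembl v86 genes with featureCounts. The deposited table holds raw counts per gene, not normalized. Strand setting, multimapping and use of molecular identifiers are not given in the sources used here. Depth was 8150556 to 12839174 counts per library. 563 of 45706 gene IDs had no symbol in GENCODE M21.

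Groups came from the labels, and experiment codes from the titles. All 3 groups were fitted in 1 model with edgeR 4.0.16 (TMM, filterByExpr, quasi-likelihood F test), with p-values adjusted over the 14550 genes kept. A gene was called when its adjusted p was at or under 0.05 and its log2 fold change was 1.5 or more in size. SE is the log2 fold change over the square root of F. CPM values used library totals. Tested on counts simulated for *Ptgs*-/- against *Ptgs*+/+ tumors over 14351 genes, the fit recovered 174 of 200 genes changed by 2 on the log2 scale and called 5 unchanged genes. The labels do not say that each library is 1 animal, so p-values measure the spread between these samples. Replicates of 1 group differed beyond counting noise (chi-square per degree of freedom 7.41 to 30.1).

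Alternatives were DESeq2 1.42.0, library size alone, 2 other filters, the likelihood ratio test, only the 2 groups, the experiment code, the replicate number, and leaving out each library. Named genes were all 10 members, up to 4 per list by size of change past the adjusted p, the 5 genes most like each of 4 keratins, and the label checks; others were named after their values were seen. The members and lists were chosen with earlier results of these data known. Coordinates are GENCODE M21; promoters are RefSeq, GRCm38.p6. Software was R 4.3.3, Python 3.11 and scipy 1.17.1.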

Additional observations from a re-analysis of the deposited data

Results flagged for a closer look

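Among the 4 *Ptgs*+/+ libraries, the group of a size at which a single far value can be tested by the gap to its nearest neighbour, 1 of 9 keratins with counts was marked. *Krt1* stood at 0.0878 CPM in replicate 3 and at 0 in the others, a difference of 1 count. Any gene with counts in 1 of the 4 libraries alone is marked in this way, so the mark was fixed by the low counts. For values well above the floor chance marks about 1 in 20 groups.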

How the results depend on the processing

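The count of keratins called in *Ptgs*-/- against *Ptgs*+/+ tumors, 2 as reported, was 1 with a minimum of 10 counts in every library, which left 2 members to test, 1 with only the 2 groups compared, 4 within the libraries of the first experiment code, and 3 with DESeq2, no filter, the likelihood ratio test, the replicate block or the experiment code as a term, each adding *Krt14* or *Krt15*. Leaving out 1 library at a time gave 1 to 6. The other 2 counts of keratins (0 and 1) were the same under all 20 alternatives of each. Directions turned in comparisons without a call. For NK-depleted against undepleted *Ptgs*-/- tumors, *Krt10* was -0.15 within the first experiment code, and with a library left out the log2 fold change of *Krt10* ranged from -0.15 to 0.14, of *Krt8* from -0.23 to 1.91 and of *Krt18* from -0.057 to 2.36. For NK-depleted against *Ptgs*+/+ tumors, *Krt17* ranged from -0.60 to 0.17, *Krt8* from -0.65 to 0.12 and *Krt18* from -0.58 to 0.022, and *Krt18* was 0.011 with the replicate block. The cause was not tested.

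Calls over all genes were 604, 167 and 395 in the order of the comparisons above. They were 305, 36 and 142 with a minimum of 10 counts in every library, which leaves fewer genes to test, and 3360, 209 and 1818 by adjusted p alone. Within the first experiment code the second was 87, and it ranged from 100 to 213 with a library left out. The numbers of the labels were not taken to pair the samples, since same-numbered libraries of different groups had correlations of deviations between -0.30 and 0.39 over 11 pairs. With the replicate block the calls were 610, 156 and 400, and 3, 0 and 1 of the keratins. Levels by TMM-scaled CPM stayed within 1 SD, both partner correlations kept their side of the threshold under all 12 alternatives each, and 4 or 5 of the 5 most alike genes were the same with a pseudocount of 0.5. At 3 counts per library a member under 0.234 to 0.368 CPM cannot be told from 0.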
